A study of Mus musculus with 6 samples.

Results

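De novo lipogenesis, the making of fatty acids from acetyl-CoA and their storage as triglyceride, was followed through 10 genes in the liver of Mdr2 knockout mice given lycorine, a plant alkaloid. The genes were Fasn, Acaca, Acly, Scd1, Elovl6, Srebf1, Me1, Thrsp, Pnpla3 and Gpam. They were chosen by name, as fatty acid and triglyceride synthesis genes under the transcription factors SREBP1c, LXR and ChREBP, and all 10 were found among the 58601 rows of the deposited table. Of these, 9 had a mean of at least 1 TPM, transcript abundance corrected for length and scaled to a sum of 1000000 a library, over all libraries and were tested among 13854 rows. Pnpla3 did not reach that level.

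Both groups were livers of Mdr2 knockout mice, 8 weeks old at the start and treated for 2 weeks. One group received lycorine (3 libraries) and the other vehicle (3 libraries). Mdr2, the gene Abcb4, encodes the transporter that puts phosphatidylcholine into bile, and its loss gives cholestatic liver injury. The titles call the genotype Mdr2-/- and the growth protocol Mdr2-HKO, without saying which cells lost the gene; dose and sex were not given in the labels used here, and no wild-type liver was analysed here. The labels speak of mice but do not say that each library is a separate animal, so a p-value here reflects only how these libraries vary, and that variation may be technical.

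In hepatocytes, insulin raises SREBP1c, oxysterols activate LXR, which also raises SREBP1c, and sugar activates ChREBP. These factors together switch on the enzymes that turn citrate into palmitate, lengthen and desaturate it, and join it to glycerol. SREBP1c is cleaved from a membrane precursor, so the RNA level of Srebf1 does not show how much active factor is present. The sister factor SREBP2 mainly drives cholesterol synthesis.

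For none of the 9 tested lipogenesis genes did the difference between lycorine and vehicle pass the test against the spread of the libraries. In limma, with p-values adjusted by Benjamini-Hochberg across the 13854 rows, 0 of the 9 passed 0.05, and the share of all rows that passed was 0%. At an unadjusted p under 0.05 there were 0 of the 9, where 3.44% of all rows stood below that p, 2.79% as higher and 0.65% as lower in lycorine. These shares are also the background for the counts at that p in the gene lists below. The genes did not all vary alike across libraries. Fasn and Acly were highest in lycorine 1 and lycorine 2, Scd1 was lowest in lycorine 3, Acaca stood high in vehicle 3 alone, and Thrsp ranged from 12.49 TPM in vehicle 1 to 199.84 TPM in lycorine 2.

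The libraries were unequal, and this touches every value that follows. Protein-coding nuclear genes made up 69.49% to 78.05% of TPM in lycorine libraries, against 71.5%, 63.65% and 51.49% in vehicle 1, 2 and 3. Albumin (Alb), the main hepatocyte product, was at 11824 to 19785 TPM in lycorine libraries, against 16618, 18246 and 5039 TPM in vehicle 1, 2 and 3. The median log2 fold change of all tested rows was 0.22, and -0.02 with median-of-ratios scaling, so a log2 fold change near 0.2 is what a typical row shows under the TPM scale. Abcb4 itself was present at 8.32 to 32.2 TPM in lycorine libraries and 10.8 to 43.5 TPM in vehicle libraries; which part of it was removed is not given in the labels used here, so its level does not check the genotype. In bulk liver, fewer cells of a type and less RNA per cell cannot be told apart. Vehicle 3 stood apart. Its correlation to the other libraries was 0.728 to 0.778 on the log2 scale across tested rows, against 0.863 to 0.953 among the other 5. Values without vehicle 3 are therefore given below. Among those other 5, the correlations of lycorine 3 were the lowest, 0.863 to 0.897, and the rest were 0.935 to 0.953. Depth is unknown, since TPM keeps no record of it, so no counting interval is given.

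The start regions of the genes show which known control letters lie close to the promoters. Windows from 250 bases before to 50 after each start were taken from RefSeq on GRCm38.p6; they matched 9 of the 10 genes, all but Scd1, in 13 windows. Letters were searched on both strands. CCAAT, the box bound by NF-Y, a partner of SREBPs, was in 8 of the 13 windows and in 37.4% of all 32851 windows. GGGCGG, the GC box bound by Sp1, was in 6 of the 13 and in 35.7% of all. The E-box CACGTG, which USF and ChREBP can bind, was in 0 of the 13 and in 7.15% of all. An SREBP element, TCAC and CCAC with any 1 base between, was in 0 of the 13 and in 1.24% of all. The strict LXR element, AGGTCA repeated with 4 bases between, was in 0 of the 13 and in 0.0152% of all. A looser form, GGTNA and GGTCA with 5 bases between, was tried after the strict form had been searched. It was in 2 of the 13, those of Fasn and of 1 of the 3 Srebf1 windows, and in 0.207% of all windows. Every strict match is also a loose match. A match is a run of letters and not a measured binding site, and a window without a match says only that these letters are not in these bases.

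The stretches before the start are shown for Fasn and Srebf1, the enzyme and the regulator that hold the looser LXR element, for Acly, whose log2 fold change was largest against its error, and for Thrsp, whose level varied most. Capitals mark matches to CCAAT (or ATTGG on the other strand), GGGCGG (or CCGCCC) and the looser LXR element.
Fasn, chr11:120824548-120824797, minus strand: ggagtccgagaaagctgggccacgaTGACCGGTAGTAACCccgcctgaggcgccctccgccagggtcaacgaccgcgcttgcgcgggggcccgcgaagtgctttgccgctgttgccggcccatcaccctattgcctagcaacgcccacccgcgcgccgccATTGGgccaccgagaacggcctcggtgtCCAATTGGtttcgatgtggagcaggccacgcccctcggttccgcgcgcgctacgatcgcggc
Srebf1, chr11:60210472-60210721, minus strand: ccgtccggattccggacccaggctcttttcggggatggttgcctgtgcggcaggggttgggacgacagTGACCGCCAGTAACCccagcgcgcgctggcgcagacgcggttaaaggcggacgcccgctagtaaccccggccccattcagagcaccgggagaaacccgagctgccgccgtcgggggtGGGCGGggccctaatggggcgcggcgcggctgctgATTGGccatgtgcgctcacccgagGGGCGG
Acly, chr11:100528001-100528130, minus strand: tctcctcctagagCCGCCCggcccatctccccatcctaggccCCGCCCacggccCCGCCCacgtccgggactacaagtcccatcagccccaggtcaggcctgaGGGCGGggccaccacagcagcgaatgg
Thrsp, chr7:97417551-97417670, minus strand: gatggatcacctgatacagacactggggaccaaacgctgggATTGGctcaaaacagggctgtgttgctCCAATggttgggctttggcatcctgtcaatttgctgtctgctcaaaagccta
In Fasn the looser LXR element lay from base -225 to base -211 before the start and the CCAAT boxes between base -90 and base -55, of which 2 overlap as CCAATTGG. In Srebf1 the element lay from base -182 to base -168. Positions count from the RefSeq start. For Thrsp and for this Srebf1 window that start lies inside the gene as GENCODE bounds it, so both stretches fall within the spans given for those genes below.

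Srebf1 encodes the precursors of SREBP1a and SREBP1c, which arise from separate starts, and a gene-level value cannot tell them apart. The gene lies on chromosome 11 from 60199089 to 60222581 of GRCm38 and overlaps Rai1 on the opposite strand; whether the counting used strand is not given in the sources used here. Srebf1 was at 19.36, 14.35 and 14.15 TPM in lycorine libraries, against 13.29, 16.08 and 8.61 TPM in vehicle libraries. The groups overlapped, with vehicle 3 lowest of all and vehicle 2 above 2 of the lycorine libraries. The means were 16 ± 2.95 TPM in lycorine and 12.7 ± 3.77 TPM in vehicle (SD, n = 3 each). The log2 fold change was 0.34 (SE 0.32, 95% interval -0.42 to 1.09, limma adjusted p = 0.832), and 0.10 without vehicle 3. With median-of-ratios scaling it was 0.045.

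Acly, ATP citrate lyase, makes cytosolic acetyl-CoA from citrate and so supplies the pathway. It lies on chromosome 11 from 100476353 to 100528000. Acly was at 9.34, 7.73 and 4.16 TPM in lycorine libraries, against 4.68, 3.40 and 3.31 TPM in vehicle libraries. Lycorine 1 and lycorine 2 lay above every vehicle library, and lycorine 3 lay below vehicle 1. The means were 7.08 ± 2.65 TPM in lycorine and 3.80 ± 0.766 TPM in vehicle (SD, n = 3 each). Its log2 fold change was 0.70 (SE 0.35, 95% interval -0.11 to 1.51), with an unadjusted limma p of 0.0795, the smallest of the 9 genes, and an adjusted p of 0.832. Leaving out lycorine 3 gave 0.998, and leaving out vehicle 3 gave 0.63.

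Acaca, acetyl-CoA carboxylase 1, makes malonyl-CoA, the committed step of fatty acid synthesis. The gene spans chromosome 11 from 84129672 to 84401651. Acaca was at 6.77, 5.40 and 6.28 TPM in lycorine libraries, against 6.48, 5.27 and 31.86 TPM in vehicle libraries. Of the 6 libraries 5 lay within 5.27 to 6.77 TPM, and vehicle 3 stood apart. The means were 6.15 ± 0.694 TPM in lycorine and 14.5 ± 15.0 TPM in vehicle (SD, n = 3 each). The log2 fold change of -0.70 (SE 0.61, 95% interval -2.12 to 0.73, limma adjusted p = 0.832) rested on vehicle 3 and was 0.058 without it. The paralog Acacb, the carboxylase of the mitochondrial surface, was below 1 TPM in all 6 libraries.

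Fasn, fatty acid synthase, builds palmitate from malonyl-CoA. Its place is chromosome 11 from 120805846 to 120824547. Fasn was at 32.18, 24.24 and 7.73 TPM in lycorine libraries, against 14.33, 16.97 and 5.28 TPM in vehicle libraries. Lycorine 1 and lycorine 2 were above every vehicle library, while lycorine 3 lay between vehicle 3 and vehicle 1. The means were 21.4 ± 12.5 TPM in lycorine and 12.2 ± 6.13 TPM in vehicle (SD, n = 3 each). For Fasn the log2 fold change was 0.69 (SE 0.61, 95% interval -0.72 to 2.11, limma adjusted p = 0.832). It was 1.27 without lycorine 3, 0.31 without lycorine 1 and 0.23 without vehicle 3.

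**Figure D1:**
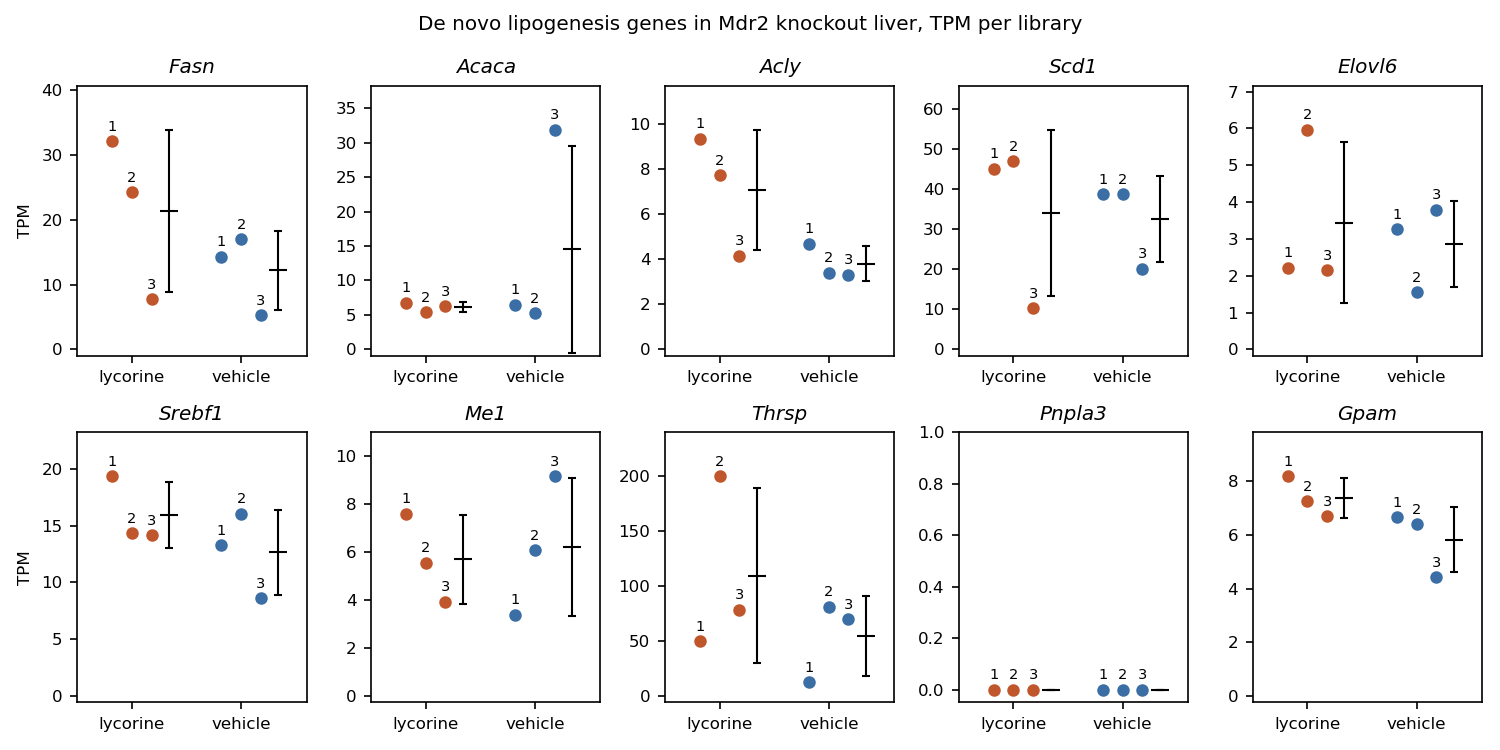
Level of each of the 10 genes in TPM on the y axis, with lycorine libraries (orange) left of vehicle libraries (blue) and the library number above each point; the black mark and bar give the mean and SD of 3 libraries. The groups overlap in TPM in every gene but Gpam, where lycorine libraries lie at 6.69 to 8.18 TPM and vehicle libraries at 4.42 to 6.66 TPM, and Pnpla3 is at 0 throughout.

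Me1, cytosolic malic enzyme, supplies NADPH for the synthase. It was at 7.60, 5.55 and 3.92 TPM in lycorine libraries, against 3.38, 6.08 and 9.15 TPM in vehicle libraries. The lycorine values lay inside the vehicle range. Between the groups the log2 fold change was -0.06 (SE 0.40, 95% interval -0.99 to 0.86, limma adjusted p = 0.974). It was 0.23 without vehicle 3 and 0.14 without lycorine 3.

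Elovl6, the elongase that lengthens palmitate to stearate, had the lowest mean TPM of the tested genes in both groups. Elovl6 was at 2.22, 5.96 and 2.15 TPM in lycorine libraries, against 3.26, 1.55 and 3.79 TPM in vehicle libraries. The highest value was that of lycorine 2, and the other lycorine values lay within the vehicle range. Its log2 fold change was 0.15 (SE 0.44, 95% interval -0.88 to 1.17, limma adjusted p = 0.940), 0.33 without vehicle 3 and -0.23 without lycorine 2.

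Scd1, stearoyl-CoA desaturase, makes oleate and palmitoleate. It lies on chromosome 19 from 44394455 to 44407879, next to its close paralogs. Scd1 was at 45.11, 46.93 and 10.22 TPM in lycorine libraries, against 38.80, 38.78 and 20.11 TPM in vehicle libraries. Both the highest and the lowest value were in lycorine, and lycorine 3 was the lowest of the 6. The means were 34.1 ± 20.7 TPM in lycorine and 32.6 ± 10.8 TPM in vehicle (SD, n = 3 each). The difference on the log2 scale was -0.14 (SE 0.61, 95% interval -1.56 to 1.27, limma adjusted p = 0.958). It was 0.55 without lycorine 3 and -0.45 without vehicle 3. The paralogs Scd3 and Scd4 were at most 0.34 TPM in any library, and Scd2 averaged 1.32 ± 0.614 TPM in lycorine and 1.19 ± 0.831 TPM in vehicle (SD, n = 3 each), although reads of such close copies can be split between them.

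Thrsp, known as Spot 14, is a small protein that follows lipogenic state and thyroid hormone in rodent liver. The gene is on chromosome 7 from 97412938 to 97417730. Thrsp was at 49.92, 199.84 and 78.38 TPM in lycorine libraries, against 12.49, 81.17 and 69.71 TPM in vehicle libraries. Lycorine 2 was the highest and vehicle 1 the lowest, with the other 4 libraries between 49.92 and 81.17 TPM. The means were 109 ± 79.6 TPM in lycorine and 54.5 ± 36.8 TPM in vehicle (SD, n = 3 each). The log2 fold change of 1.12 was the largest of the 9 genes and had the largest error (SE 0.79, 95% interval -0.71 to 2.96, limma adjusted p = 0.832). Without vehicle 1 it was 0.29, without lycorine 2 it was 0.57, and without vehicle 3 it was 1.49.

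Gpam, the mitochondrial glycerol-3-phosphate acyltransferase, starts triglyceride synthesis. Its place is chromosome 19 from 55067268 to 55127238. Gpam was at 8.18, 7.26 and 6.69 TPM in lycorine libraries, against 6.66, 6.40 and 4.42 TPM in vehicle libraries. Every lycorine library was above every vehicle library, by as little as 6.69 TPM in lycorine 3 against 6.66 TPM in vehicle 1. It was the only one of the 9 whose groups did not overlap upward, where 9.6% of all tested rows did so, and 0 of the 9 were separated downward, where 1.01% of all rows were. The log2 fold change was 0.31 (SE 0.28, 95% interval -0.34 to 0.96, limma adjusted p = 0.832), close to the median of all rows, and 0.15 without vehicle 3. Scaled to a sum of 1000000 over protein-coding nuclear genes, Gpam averaged 9.91 ± 0.490 in lycorine and 9.32 ± 0.735 in vehicle (SD, n = 3 each), and the groups overlapped.

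Pnpla3, a lipid droplet protein under SREBP1c that varies strongly with feeding in mice, was listed at 0 TPM in all 6 libraries. It lies on chromosome 15 from 84167837 to 84187236. In the same stretch and on the same strand the annotation has Gm49513, a processed transcript named here after its values were seen. It was at 0.81 TPM in lycorine 1 and 7.76 TPM in vehicle 3 and at 0 in the other 4 libraries. With no counts, a value of 0 gives no upper limit.

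**Figure D2:**
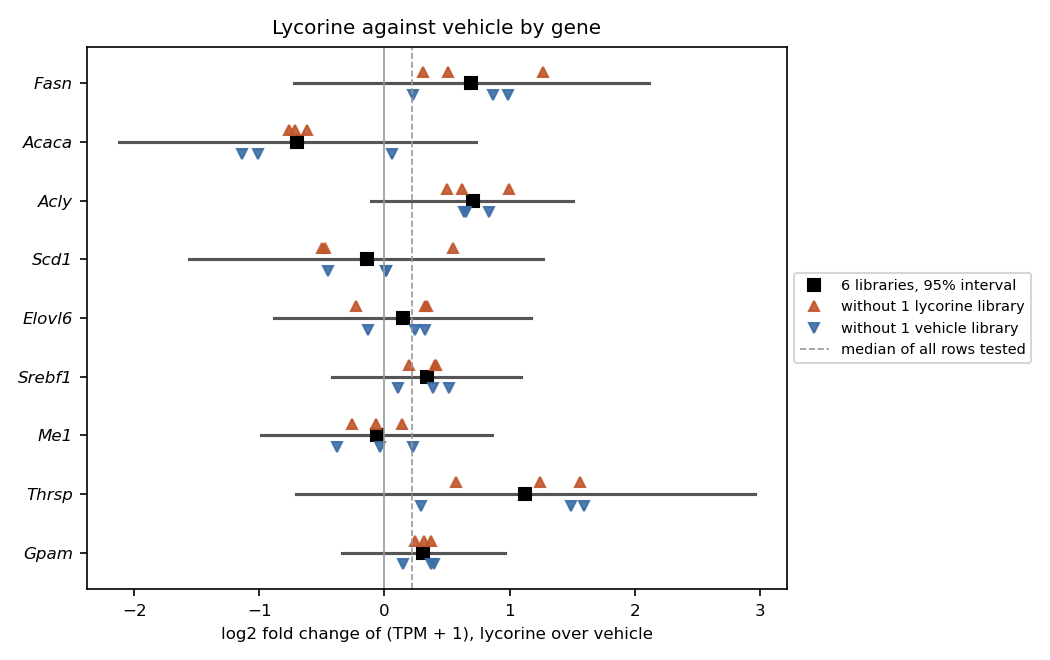
Log2 fold change of (TPM + 1), lycorine over vehicle, for the 9 tested genes (black squares, with limma 95% intervals as lines) and after leaving out each lycorine library (orange triangles) or vehicle library (blue triangles). All 9 intervals include 0, and Acaca moves from -0.70 to 0.058 without vehicle 3.

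Among the 9 genes, 6 were higher in lycorine and 3 lower (5 and 4 with median-of-ratios scaling), where 69.9% of all tested rows were higher. Their median log2 fold change was 0.31 against 0.22 for all rows, and 5 of the 9 exceeded 0.22. Without vehicle 1 the order turned, with 0.29 for the 9 genes against 0.38 for all rows. Without vehicle 3 the medians were 0.23 and 0.20, and with vehicle 3 and lycorine 3 both left out 0.43 and 0.23. The count of higher genes ran from 5 to 9 over 16 alternatives, in all of which 0 of these genes passed in limma. It was 9 with vehicle 3 and lycorine 3 both left out, and 8 without vehicle 3 alone or lycorine 3 alone. It was 5 without lycorine 2 and, as above, with median-of-ratios scaling.

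Libraries of 1 group differed from each other in the level of these genes. A deviation is the log2(TPM + 1) of a gene minus its mean over the 6 libraries, minus the same averaged over all rows. Relative to all rows, 8 of the 9 genes were above their own mean in lycorine 2 and 6 in lycorine 1, but 1 in lycorine 3. In vehicle 2 there were 6 above, in vehicle 3 there were 4 and in vehicle 1 there was 1. The mean deviation of the 9 genes was 0.163, 0.475 and -0.442 in lycorine 1, 2 and 3, and -0.436, 0.356 and -0.116 in vehicle 1, 2 and 3. Each group thus had libraries on both sides of 0. In vehicle 3 the mean hid opposite values, with Acaca at 1.80 and Fasn at -1.34.

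**Figure D3:**
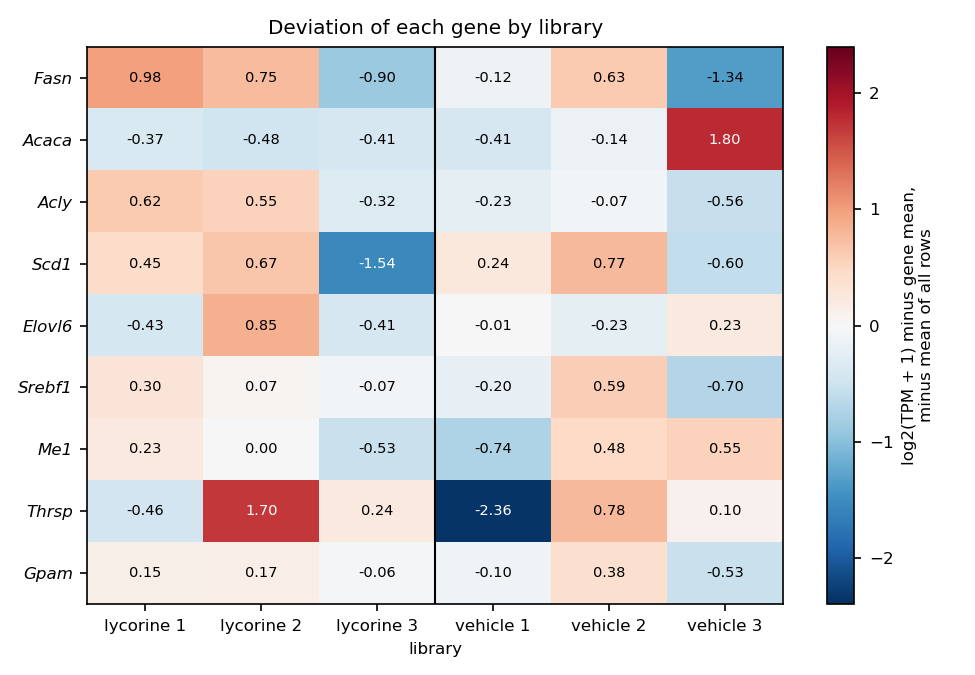
Deviation of each tested gene (rows) in each library (columns, lycorine left of the line and vehicle right), as log2(TPM + 1) minus the gene's mean and minus the mean of all rows; red is above and blue below. Vehicle 3 holds the highest value of Acaca, 1.80, and the lowest of Fasn, -1.34, and vehicle 1 the lowest of Thrsp, -2.36.

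Ratios between 2 genes within a library do not depend on the scaling between libraries. Of the 36 pairs among the 9 genes, 2 had groups that did not overlap, or 5.56%, where 7.37% of all pairs of rows above 0 in every library did so. Both involved Scd1. Fasn over Scd1 was 0.713, 0.517 and 0.756 in lycorine libraries, against 0.369, 0.438 and 0.263 in vehicle libraries. Acly over Scd1 was 0.207, 0.165 and 0.407 in lycorine libraries, against 0.121, 0.0877 and 0.165 in vehicle libraries, where lycorine 2 and vehicle 3 were equal to the digits shown. These pairs were picked from the 36 after their values were seen, and their share is below that of all pairs.

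The other enzymes and carriers of fatty acid synthesis gave a similar lack of calls. Of 22 listed genes 19 were tested, 16 were higher in lycorine (15 with median-of-ratios scaling), 3 lower and 0 passed in limma, and 2 had an unadjusted p under 0.05. Their median log2 fold change was 0.59, 0.28 with median-of-ratios scaling and 0.32 without vehicle 3. Acss2, which makes acetyl-CoA from acetate, was at 10.17, 10.57 and 9.29 TPM in lycorine libraries, against 6.59, 6.56 and 5.14 TPM in vehicle libraries. Hacd3, a dehydratase of chain elongation, averaged 47.4 ± 3.48 TPM in lycorine and 28.8 ± 5.60 TPM in vehicle (SD, n = 3 each; limma adjusted p = 0.832 for both). Neither overlapped between groups, as was so for 6 of the 19, all higher in lycorine, where 9.6% of all tested rows were separated that way. These counts are on the TPM scale, on which 69.9% of all tested rows were higher in lycorine. Counts of separated genes under other scalings are not reported here. Acsl3, an acyl-CoA synthetase, averaged 4.70 ± 5.10 TPM in lycorine and 0.830 ± 0.213 TPM in vehicle, with lycorine 3 at 10.58 TPM.

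Of 17 other genes of triglyceride synthesis and export 15 were tested, with 14 higher (9 with median-of-ratios scaling), 1 lower and 0 passing in limma (0 with an unadjusted p under 0.05). Dgat2, which adds the last fatty acid of triglyceride, averaged 214 ± 19.2 TPM in lycorine and 149 ± 27.6 TPM in vehicle (SD, n = 3 each; limma adjusted p = 0.832). Tm6sf2, which loads lipid onto secreted particles, averaged 32.7 ± 9.52 TPM in lycorine and 18.1 ± 8.55 TPM in vehicle, and Agpat1, an acyltransferase, 7.81 ± 1.98 TPM in lycorine and 4.73 ± 2.18 TPM in vehicle. Tm6sf2 and Agpat1 overlapped between groups.

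Among the regulators 23 of 24 were tested, with 20 higher (14 with median-of-ratios scaling), 3 lower and 0 passing in limma (1 with an unadjusted p under 0.05). Nr1h3, the receptor LXR alpha, averaged 102 ± 17.2 TPM in lycorine and 77.3 ± 12.1 TPM in vehicle, a log2 fold change of 0.39 (SE 0.29, limma adjusted p = 0.832). Mlxipl, the sugar-responsive factor ChREBP, was at 14.42, 23.51 and 41.14 TPM in lycorine libraries, against 19.49, 10.71 and 41.25 TPM in vehicle libraries. The highest values of Mlxipl were those of lycorine 3 and vehicle 3, and its log2 fold change was 0.22 (SE 0.56). Rxra, the partner of LXR, averaged 52.5 ± 6.63 TPM in lycorine and 38.6 ± 3.44 TPM in vehicle, without overlap.

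Insig1 and Insig2 hold SREBPs back in the endoplasmic reticulum, and Insig1 is itself an SREBP target. Insig1 was at 23.19, 22.19 and 11.33 TPM in lycorine libraries, against 4.57, 10.23 and 5.37 TPM in vehicle libraries. It had the smallest unadjusted p of the regulators, 0.0109, with a log2 fold change of 1.37 (SE 0.41, limma adjusted p = 0.832). Insig2 was at 23.04, 11.47 and 20.07 TPM in lycorine libraries, against 43.84, 17.88 and 13.91 TPM in vehicle libraries, and overlapped. Srebf2, the gene of SREBP2, was at 25.32, 20.82 and 14.00 TPM in lycorine libraries, against 15.34, 12.24 and 7.40 TPM in vehicle libraries, with overlap and a log2 fold change of 0.75 (SE 0.37, limma adjusted p = 0.832).

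Genes under LXR outside fatty acid synthesis were 8 tested of 9, with 6 higher (4 with median-of-ratios scaling), 2 lower and 0 passing in limma (0 with an unadjusted p under 0.05). Lpcat3, which puts polyunsaturated fatty acids into phospholipid, averaged 37.6 ± 9.72 TPM in lycorine and 25.0 ± 8.32 TPM in vehicle, and Pltp, the phospholipid transfer protein, 17.8 ± 7.15 TPM in lycorine and 32.3 ± 23.7 TPM in vehicle. Both overlapped, as did Apoe, the apolipoprotein E gene, at 39569 ± 6613 TPM in lycorine and 31727 ± 9230 TPM in vehicle (SD, n = 3 each). The list's median log2 fold change of 0.28 ran from -0.08 to 0.32 over 16 alternatives.

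ChREBP and sugar-responsive genes were 10 tested of 11, with 8 higher (6 with median-of-ratios scaling), 2 lower and 0 passing in limma (1 with an unadjusted p under 0.05). Their median log2 fold change was 0.62, and 0.32 without vehicle 3. Slc2a2, the glucose carrier GLUT2, was at 59.51, 40.86 and 36.18 TPM in lycorine libraries, against 26.75, 22.57 and 22.07 TPM in vehicle libraries, without overlap (log2 fold change 0.88, SE 0.30, limma adjusted p = 0.832). Tkfc, which phosphorylates glyceraldehyde from fructose, averaged 62.7 ± 16.9 TPM in lycorine and 34.5 ± 19.4 TPM in vehicle, and overlapped.

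The cholesterol genes under SREBP2 were higher in lycorine throughout, without passing the test. All 19 were tested and 19 had a log2 fold change above 0, in each of the 3 other scalings too, with a median log2 fold change of 1.02 and 0 passing in limma (6 with an unadjusted p under 0.05). Fdft1, squalene synthase, was at 37.31, 42.89 and 21.26 TPM in lycorine libraries, against 13.15, 15.82 and 11.20 TPM in vehicle libraries. Msmo1 and Mvd, a later and an earlier enzyme of the pathway, had log2 fold changes of 1.69 (SE 0.49) and 1.26 (SE 0.43). The list's mean deviation was 0.616, 1.228 and -0.438 in lycorine 1, 2 and 3, against -0.908, 0.069 and -0.567 in vehicle 1, 2 and 3. Lycorine 3 thus lay within the vehicle range for the cholesterol genes, and for the lipogenesis genes at -0.442, just below the lowest vehicle value of -0.436. Whether the cholesterol genes differed from the lipogenesis genes in their response was not tested.

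**Figure D4:**
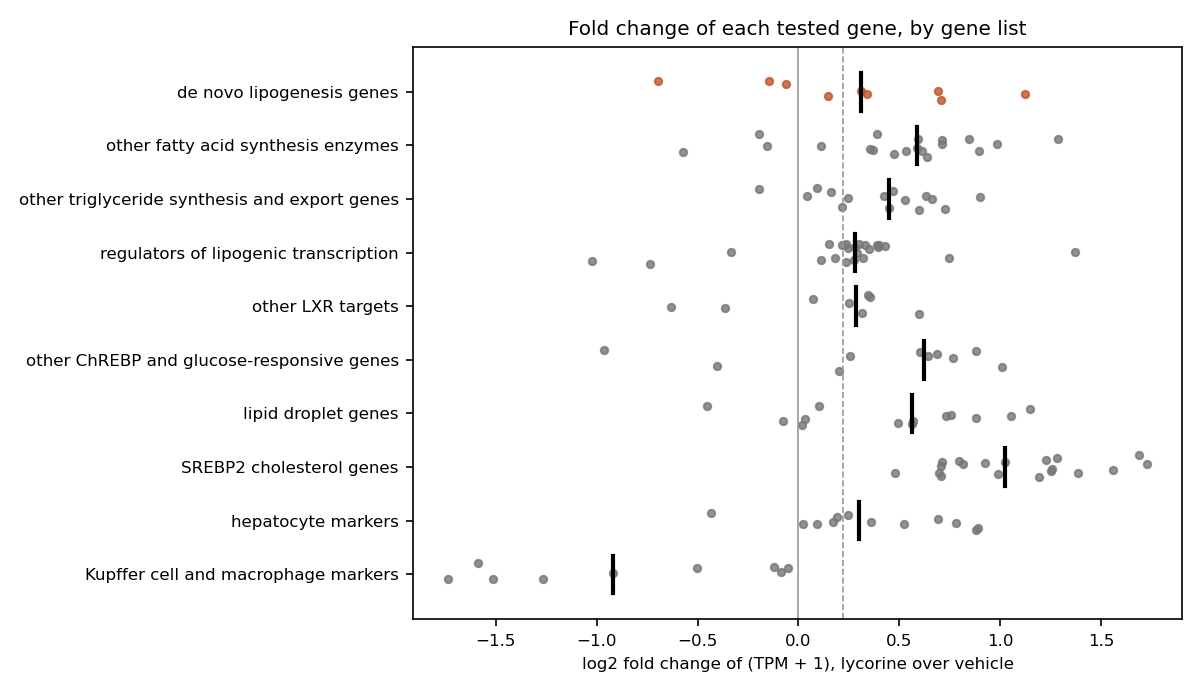
Log2 fold change of (TPM + 1), lycorine over vehicle, of each tested gene in 10 gene lists (points; vertical jitter has no meaning), with the list median as a black bar, 0 as a solid line and the median of all rows, 0.22, as a dashed line. The lipogenesis genes, in orange, run from -0.70 to 1.12 around a median of 0.31, and the cholesterol genes under SREBP2 all lie above 0.

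Markers of other cells were read beside these genes. Hepatocyte markers, 12 tested of 12, had a mean deviation of 0.317, 0.309 and -0.279 in lycorine 1, 2 and 3, against -0.089, 0.655 and -0.913 in vehicle 1, 2 and 3, and 11 of 12 were higher in lycorine (6 with median-of-ratios scaling, 7 without vehicle 3). Their summed level was 111792 to 146663 TPM in lycorine libraries and 62361 to 118278 TPM in vehicle libraries. Fasn, Scd1, Acly, Srebf1 and Gpam were, like these markers, below their own mean in lycorine 3 and vehicle 3. Unlike them, Acaca, Me1, Elovl6 and Thrsp were above their own mean in vehicle 3, at 1.80, 0.55, 0.23 and 0.10. The markers' part in the values of these genes was not tested. Of 9 adipocyte markers 4 were tested and the summed level was 15.19 to 27.25 TPM in lycorine libraries and 7.31 to 17.73 TPM in vehicle libraries. All 4 tested were higher in lycorine (4 with median-of-ratios scaling, 3 without vehicle 2). In limma 0 of them passed, and 1 had an unadjusted p under 0.05. The defining fat cell genes were at or near 0, with Adipoq at most 0.11 TPM and Plin1 at most 0.02 TPM in any library and Lep and Retn at 0 in all 6. Kupffer cell and macrophage markers, 9 tested of 12, were lower in lycorine in 9 cases, with log2 fold changes from -1.74 to -0.05. Without vehicle 1 there were 5 lower and 4 higher, and without lycorine 3 also 5 and 4. With vehicle 3 and lycorine 3 both left out, 7 were lower and 2 higher. Their summed levels were 77.66 to 122.73 TPM in lycorine libraries and 122.49 to 249.55 TPM in vehicle libraries. Clec4f, the Kupffer cell lectin, was at 14.55 to 52.75 TPM in lycorine libraries and 57.10 to 99.45 TPM in vehicle libraries. Of the 9 macrophage markers 0 passed in limma, and 4 had an unadjusted p under 0.05, where 0.65% of all rows were lower at that p. Bile duct markers summed to 50.55 to 201.19 TPM in lycorine libraries and 46.67 to 207.01 TPM in vehicle libraries, and Krt19 averaged 19.9 ± 10.6 TPM in lycorine and 23.5 ± 20.5 TPM in vehicle. Stellate cell markers summed to 47.1 to 228.14 TPM in lycorine libraries and 90.53 to 183.81 TPM in vehicle libraries, endothelial markers to 9.67 to 28.68 TPM in lycorine libraries and 19.86 to 50.48 TPM in vehicle libraries, and lymphocyte markers to 10.03 to 23.18 TPM in lycorine libraries and 17.54 to 41.01 TPM in vehicle libraries. Col1a1 averaged 17.3 ± 14.8 TPM in lycorine and 11.6 ± 10.4 TPM in vehicle, Stab2 2.30 ± 0.895 TPM in lycorine and 3.78 ± 2.33 TPM in vehicle (SD, n = 3 each), and Cd3e was at 0.65 to 2.12 TPM in lycorine libraries and 0.20 to 2.39 TPM in vehicle libraries. In lycorine 4 of 6 tested bile duct markers were higher and 2 lower, 4 of 6 stellate markers higher and 2 lower (2 and 4 with median-of-ratios scaling), 0 of 5 endothelial markers higher and 5 lower, and 1 of 4 lymphocyte markers, Cd3e, higher and 3 lower. Without lycorine 1, 1 bile duct marker was higher and 5 lower, and without vehicle 1, 5 were higher and 1 lower. Stellate markers gave the same counts in both of these fits. Endothelial markers were 2 higher and 2 lower without vehicle 1, and 2 higher and 3 lower without lycorine 3. Lymphocyte markers were 2 higher and 2 lower without lycorine 2, and likewise without lycorine 3. Of these lists 0 genes passed in limma, and 1 endothelial and 1 lymphocyte marker had an unadjusted p under 0.05, both lower. Their part in the levels of the lipogenesis genes was not tested.

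**Figure D5:**
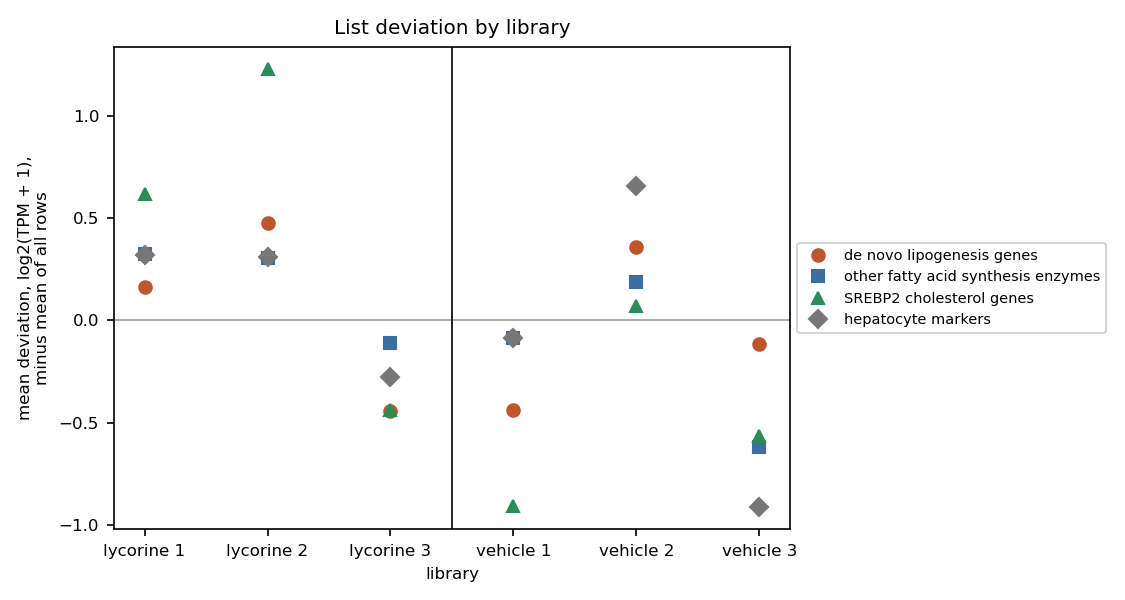
Mean deviation of 4 gene lists in each library, as log2(TPM + 1) minus each gene's mean and minus the mean of all rows, with lycorine libraries left of the line and vehicle libraries right. The lipogenesis genes (orange circles) are above 0 in lycorine 1, lycorine 2 and vehicle 2 and below it in the other 3 libraries.

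The genes whose profile over the 6 libraries was nearest to the mean profile of the 9 lipogenesis genes were found by root mean square distance on the log2(TPM + 1) scale among protein-coding rows. They were Mrps23 at a distance of 0.0802, Ppat at 0.126, Fbp1 at 0.127, Sdha at 0.132 and Bmp5 at 0.133. The lipogenesis genes themselves lay farther from their own mean profile, from 0.297 for Gpam to 1.02 for Thrsp. The named genes were picked as the nearest of all tested protein-coding rows, so their smaller distances follow from that choice. The contrast therefore says nothing about how alike the lipogenesis genes are. Mrps23 was at 12.62, 13.17 and 7.95 TPM in lycorine libraries, against 8.91, 9.30 and 10.14 TPM in vehicle libraries.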

How the data were processed

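RNA sequencing of whole liver gave 6 libraries, 3 lycorine and 3 vehicle. The authors deposited 1 table named for FPKM, but each column sums to 1000000 within rounding, so the deposited values are TPM, with 2 decimals. How reads were aligned and quantified is not given in the sources used here, nor is the annotation; the builds GRCm38 and mm10 come from the submitters' processing notes. Vehicle columns carry only genotype and number, and were matched by elimination, since the lycorine columns name their treatment. Depth cannot be read from TPM, and its fixed sum makes each value depend on all others. GENCODE M21 on GRCm38 gave names and coordinates for 52083 of the 55416 Ensembl rows; 3185 rows are assembled loci.

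The 13854 rows averaging 1 TPM or more were tested on log2(TPM + 1), which understates changes of weak genes, with limma 3.58.1 in R 4.3.3, variance trend on, two-sided, Benjamini-Hochberg over all rows, threshold 0.05. The fit was also run on simulated data, whose errors were independent and of equal spread in every library. The libraries here were unequal, so that run does not show what could be found in them. The 10 genes, the 14 context lists and the alternatives were chosen with earlier results of these data known. Named genes were the 10 members, up to 3 genes of smallest p in each context list (1 is not reported here), 5 fixed regulators, 8 defining markers and the 5 nearest profiles; others are said to be named after their values were seen, or are paralogs. Alternatives covered pseudocount, filter, scaling, variance model, library weights, a replicate block and each library left out.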

Additional observations from a re-analysis of the deposited data

How the results depend on the processing

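Under 16 alternatives, 0 of the lipogenesis genes passed in limma, their median log2 fold change stayed between 0.04 and 0.43, and 5 to 9 were higher in lycorine. Of 143 refitted values 128 kept direction and side of the threshold and 15 changed sign. Acaca was -1.14 to 0.058 with 1 library left out, the highest without vehicle 3, and 0.042 when lycorine 3 was dropped along with vehicle 3. Elovl6 was -0.069 with median-of-ratios scaling, -0.0625 with protein-coding nuclear genes alone, 0.95 with array quality weights, 0.52 with both left out, and -0.23 to 0.34 with 1 library left out; with a minimum mean of 5 TPM it had no value. Me1 was 0.023 with array quality weights, 0.43 with both left out, and -0.38 to 0.23 with 1 library left out. Scd1 was 0.29 with array quality weights, 0.24 with both left out, and -0.50 to 0.55 with 1 library left out. The cause was not tested. The whole table had 0 rows passing, against 1 at pseudocount 0.1, 1 under array quality weights, 5 with both libraries left out and 0 to 2 with 1 library left out. Higher against lower rows at an unadjusted p under 0.05 were 386 and 90, against 127 and 193 under median-of-ratios scaling, 137 and 158 after quantile normalization, and 144 and 104 among protein-coding nuclear genes. The median of all rows, 0.22, was then -0.020, 0.069 and 0.025. The replicate block kept all fold changes, called 0 rows and gave 1033 rows with an unadjusted limma p under 0.05 against 476. The group mean of each row was subtracted from its log2(TPM + 1), and what was left was correlated between lycorine and vehicle libraries. This correlation was 0.311, 0.049 and 0.291 between same-numbered libraries, against -0.344 to 0.214 between libraries of unlike number. Each lycorine library correlated best with the vehicle library of its number. Vehicle 2 correlated better with lycorine 1, at 0.214, than with lycorine 2. The labels do not say that numbers pair libraries, so the main fit left pairing out, and these values do not settle it. Depth is unknown, so the counting error of weak genes such as Elovl6 cannot be given.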

Other observations

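Lipid droplet genes were read apart from the lists of synthesis. Of 14 listed 13 were tested, with 11 higher (8 with median-of-ratios scaling) and 2 lower in lycorine and 0 passing in limma (2 with an unadjusted p under 0.05). Fitm1, which helps droplets bud from the endoplasmic reticulum, was at 44.14, 52.43 and 44.14 TPM in lycorine libraries, against 20.13, 29.16 and 14.77 TPM in vehicle libraries. It did not overlap between groups, with a log2 fold change of 1.15 (SE 0.32, unadjusted p = 0.00858 and adjusted p = 0.832 in limma). Pnpla2, the lipase that opens triglyceride breakdown, averaged 75.2 ± 17.1 TPM in lycorine and 44.2 ± 10.2 TPM in vehicle, and Cidec, a droplet fusion protein, 9.56 ± 2.65 TPM in lycorine and 4.96 ± 2.55 TPM in vehicle (SD, n = 3 each; limma adjusted p = 0.832 for both). Plin2, the general droplet coat protein, was at 161 ± 33.2 TPM in lycorine and 166 ± 98.6 TPM in vehicle; it was named after its values were seen. The list's median log2 fold change of 0.56 was 0.10 at its lowest, without vehicle 3, when 8 of 13 were higher and the median of all rows was 0.20, and 0.72 at its highest over 16 alternatives.

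The single high value of Acaca in vehicle 3 had company. Rows over 4-fold higher on the (TPM + 1) scale in 1 library than in every other, a measure chosen after that value was seen, numbered 19, 20 and 297 in lycorine 1, 2 and 3, against 49, 12 and 829 in vehicle 1, 2 and 3. Of the 829 rows in vehicle 3, 321 were protein-coding. Among the listed genes these were Acaca, Ppargc1b, a coactivator of SREBP, and Mbtps2, a protease that releases SREBPs. Mbtps2 was at 0.73, 0.59 and 0.61 TPM in lycorine libraries, against 0.77, 0.53 and 12.73 TPM in vehicle libraries. Ppargc1b was at 0.39, 0.38 and 0.77 TPM in lycorine libraries, against 0.36, 0.26 and 8.15 TPM in vehicle libraries.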
